A study of Mus musculus with 15 samples.

Results

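The comparison set 3 arrays labelled negative control against 3 arrays labelled control, both from mouse melanocytes kept at low oxygen, and asked what the negative control condition added to hypoxia alone. These 6 arrays, chosen by their sample titles, belong to a series of 15. All cells were melan-Ink4a-Arf-1, given in the labels together with the name melan-a, an immortal line of pigment cells derived from Cdkn2a tm1RDp/tm1RDp mice. Every group therefore lacks the products of Cdkn2a, the cell cycle inhibitor p16Ink4a and the Mdm2 inhibitor p19Arf. Cells were grown at 37 °C with 10% serum, 200 nM of a phorbol ester and 200 pM cholera toxin, agents that keep mouse melanocytes dividing in culture. The negative control and the plain control (here the hypoxia control) were both kept for 24 h at 1% oxygen, 5% CO2 and 94% nitrogen. The labels do not say what the negative control received, and they describe a transfection 24 h before hypoxia only for 2 further hypoxic groups, Si1 and Si6, which got small interfering RNAs against Hif1a. The remaining group was normoxic, at about 21% oxygen and 10% CO2. The 5 groups of 3 arrays are called biological triplicates in the series, but all come from 1 line, so p-values measure the spread between cultures of that line.

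By way of background, a negative control in a knockdown experiment is usually a small RNA duplex that matches no gene of the cell, delivered by the same reagent as the active duplexes. Double-stranded RNA in the cytosol can be read by the sensors RIG-I, MDA5 and PKR, which switch on interferon-stimulated genes. DNA damage and other stresses activate p53, which induces genes of cell cycle arrest and apoptosis. Melanocytes make pigment in lysosome-related organelles, the melanosomes, under the control of the transcription factor Mitf.

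The deposited values are log2 intensities normalized between arrays, with medians of 6.58 to 6.61 on the 6 arrays. Arrays correlated at 0.9939 to 0.9949 within the negative control, at 0.9950 to 0.9956 within the hypoxia control and at 0.9913 to 0.9931 between them. A difference is always negative control minus hypoxia control on the log2 scale, where 1 is a doubling of the signal. A ± after it is the standard error of the linear model fit by limma with 3 arrays per group, and adjusted p-values are those of limma after Benjamini-Hochberg adjustment over 22180 genes. In these bulk samples, fewer cells of a kind and less RNA per cell cannot be told apart.

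Markers of the melanocyte were bright in both groups. Tyrp1, an enzyme of melanin synthesis, read 13.02, 13.06 and 13.07 in the negative control, against 13.15, 13.07 and 13.08 in the hypoxia control. The midpoint of all genes was 6.9, so this was near the top of the scale, and the difference was -0.05 ± 0.05 (adjusted p = 0.611). Macrophage markers differed by -0.15 to 0.14, keratinocyte markers by -0.2 to 0.08 and endothelial markers by -0.21 to 0.1, with adjusted p-values of at least 0.237, 0.136 and 0.144. The leukocyte gene Ptprc was dim, at 4.41, 4.6 and 4.63 in the negative control, against 4.62, 4.56 and 4.57 in the hypoxia control. Not all of these markers were: Cd68, a lysosomal protein gene of macrophages, read 8.33, 8.34 and 8.3 in the negative control, against 8.28, 8.44 and 8.44 in the hypoxia control, above that midpoint and with overlap. Of 7 fibroblast markers, Col1a1 was higher (0.43) while Col1a2 (-0.2) and Lum (-0.25) were lower in the negative control. Of 4 glial markers, S100b was lower by a difference of -0.66 and Gfap by -0.24. These fibroblast and glial counts are to be read against 7.8% of all genes that rose and 7.51% that fell. S100b was bright, at means of 9.22 in the negative control and 9.87 in the hypoxia control, above that midpoint. Which cells expressed it was not tested. The calls for Lum and Gfap were each lost under 7 other settings, and that for Col1a2 under 2. The dimmer second probe set of Col1a2 differed by 0.08 (adjusted p = 0.632).

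In all, 3396 of 22180 genes, 15.3%, passed the test at an adjusted p under 0.05. The 1730 that rose in the negative control are 7.8% of genes and the 1666 that fell are 7.51%, and the median difference over all genes was -0.008. Most differences were below a doubling. A group of 55 genes (0.248%) rose at least 2-fold and 11 (0.0496%) fell at least 2-fold. In each of them the 3 arrays of one group lay wholly above those of the other, which 31.3% of all genes also showed. Of the 55, 22 belong to the gene lists described here, as do 6 of the 11. Of all 22180 genes, 640 are measured list members. The lists were chosen with earlier results of these arrays known, so this overlap is partly built in.

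**Figure D1:**
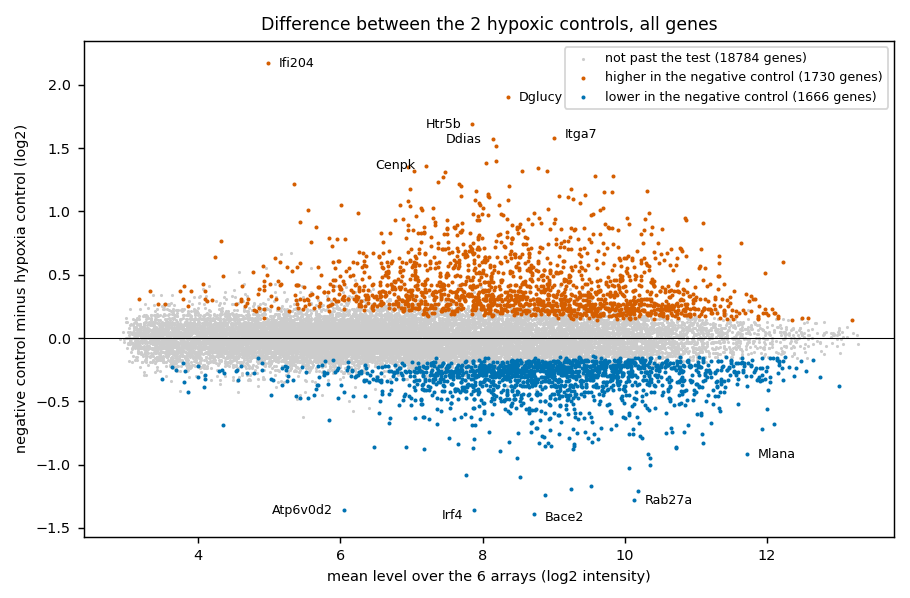
Each point is 1 of 22180 genes, with its mean level over the 6 arrays (log2 intensity) on the x axis and the difference, negative control minus hypoxia control (log2), on the y axis. Orange points are the 1730 genes that rose, blue points the 1666 that fell and grey points the genes that did not pass the test; Ifi204 lies highest at 2.17 and Bace2 lowest at -1.39.

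Genes of mitosis were higher in the negative control as a block, whatever their place in the process. Of 22 measured mitotic cyclins, kinases and regulators, 21 rose, and of 22 kinetochore and centromere genes, 20 rose. Of 20 spindle motors and microtubule proteins 19 rose, and of 9 cytokinesis genes all 9 did, each share to be read against 7.8% of all genes. The median differences were 0.62, 0.69, 0.81 and 0.77. These lists were drawn up with earlier results of these arrays known, so their direction is not independent evidence.

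Many late cell cycle genes carry the CHR element, the letters TTTGAA near the gene start, which MuvB complexes bind. The windows of 4 risen members, of which Cdk1 and Prc1 were chosen after their values were seen, are shown with this element in capitals, read on either strand as TTTGAA or TTCAAA. They are RefSeq sequences of build GRCm38.p6, on the gene's strand and upstream of the annotated gene start.
Cep55, chr19:38054972-38055040 (+ strand): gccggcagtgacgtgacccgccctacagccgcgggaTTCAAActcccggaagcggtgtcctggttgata
Kif11, chr19:37376327-37376381 (+ strand): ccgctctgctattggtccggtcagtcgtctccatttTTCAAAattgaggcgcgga
Cdk1, chr10:69352913-69352963 (- strand): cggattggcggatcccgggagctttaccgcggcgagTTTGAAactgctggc
Prc1, chr7:80294410-80294475 (+ strand): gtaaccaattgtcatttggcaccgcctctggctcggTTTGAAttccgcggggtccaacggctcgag
In these 4 the element starts 33, 19, 15 and 30 bases before the gene start. Over the window from 250 bases before to 50 after the start, 39 of 61 members of the 4 mitosis lists with a promoter entry (63.9%) held the letters on either strand, against 3019 of 16990 genes (17.8%). Of the 58 risen members with an entry, 38 held them. A match of letters is a description of the sequence and not evidence of binding.

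Cep55, which recruits the machinery that cuts the last bridge between daughter cells, read 9.92, 9.81 and 9.78 in the negative control, against 8.74, 8.67 and 8.55 in the hypoxia control. The difference was 1.18 ± 0.07 (adjusted p = 4.1e-08), a 2.27-fold higher signal with no overlap between the groups. The spindle motor Kif11, which pushes the poles apart, read 10.76, 10.7 and 10.78 in the negative control, against 9.87, 9.76 and 9.79 in the hypoxia control, again without overlap. Kif18a, a motor that shortens kinetochore microtubules, had the largest difference of its list at 1.12 ± 0.10 (adjusted p = 1.0e-06). Its arrays stood at 8.76, 8.57 and 8.57 in the negative control, against 7.53, 7.54 and 7.49 in the hypoxia control. The largest of the kinetochore list was Cenpk, a member of the inner kinetochore, at 7.92, 7.89 and 7.86 in the negative control, against 6.55, 6.59 and 6.44 in the hypoxia control, a 2.57-fold difference. Next to it stood the outer kinetochore genes Spc25 (0.94 ± 0.09), Ndc80 (0.91 ± 0.08) and Zwilch (0.89 ± 0.07).

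Checkpoint and cell cycle kinases moved by somewhat less. Mad2l1, an inhibitor of the anaphase-promoting complex, rose by 0.86 ± 0.07, the checkpoint kinase Bub1 by 0.85 ± 0.08, the kinase Ttk by 0.83 ± 0.08 and the phosphatase Cdc25c by 0.74 ± 0.08. The proliferation marker Mki67, used to stain dividing cells, read 11.59, 11.55 and 11.73 in the negative control, against 11.08, 11.03 and 10.97 in the hypoxia control. Its difference of 0.59 ± 0.06 (adjusted p = 1.0e-05) was among the smaller ones of the cytokinesis list, which ran from 0.37 (Racgap1) to 1.18. Top2a, the topoisomerase that untangles chromosomes, rose by 0.85 ± 0.06. Members that did not pass were few and are named here after their values were seen: Fzr1 (0.1), Spc24 (0.04), Cenpm (0.08) and Kifc1 (0.29).

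Chromosome cohesion followed, with 12 of 15 measured cohesin and condensin genes higher, against 7.8% of all genes, and a median of 0.51. The cohesin acetyltransferase Esco2 read 8.97, 9.01 and 8.94 in the negative control, against 7.96, 7.8 and 7.57 in the hypoxia control, a difference of 1.2 ± 0.08 (adjusted p = 1.3e-07). Smc2 (0.98 ± 0.06) and Ncaph (0.82 ± 0.06), both condensin subunits, and Sgo1 (0.85 ± 0.06), which protects centromeric cohesion, came next. The 3 that did not pass were the core cohesin genes Stag1 (0.02), Stag2 (0.02) and Smc1a (0.15), named after their values were seen.

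Replication genes were also higher than in the hypoxia control, by less. Of 33 measured genes of origin licensing and the replication fork 26 rose, set against 7.8% of all genes, all 33 differences were above 0, and the median was 0.42. Minus normoxia, the median of this list was -0.56 for the hypoxia control and -0.12 for the negative control. The negative control thus lay nearer to normoxia and not above it by the median. Cdc45, part of the helicase that opens the fork, read 7.8, 7.78 and 7.75 in the negative control, against 6.9, 6.93 and 6.85 in the hypoxia control, a difference of 0.89 ± 0.06 (adjusted p = 8.3e-08). The helicase subunit Mcm4 stood at 9.67, 9.6 and 9.65 in the negative control, against 8.81, 8.83 and 8.86 in the hypoxia control. Pole, a leading-strand polymerase, rose by 0.79 ± 0.06, but its dimmer second probe set differed by -0.14 (adjusted p = 0.180). At the other end of the list Rrm2, the regulated subunit of ribonucleotide reductase, differed by 0.02 (adjusted p = 0.868) and is named after its value was seen.

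Of 15 measured G1 genes 6 rose and 1 fell, against 7.8% and 7.51% of all genes, with a median of 0.14. Rbl1, the pocket protein p107, read 10.03, 10.03 and 9.65 in the negative control, against 8.85, 8.84 and 8.79 in the hypoxia control. This difference of 1.07 ± 0.10 (adjusted p = 2.5e-06) rests on arrays of which the third was the lowest of its group, still above all 3 of the hypoxia control. The atypical E2F repressors E2f7 (0.9 ± 0.07) and E2f8 (0.51 ± 0.07) rose as well. The member that fell was Cdk2, a kinase of the G1 to S transition, at 10.45, 10.53 and 10.44 in the negative control, against 11.15, 11.21 and 11.28 in the hypoxia control, a difference of -0.74 ± 0.06 (adjusted p = 4.7e-07). In RefSeq the span of Cdk2 overlaps that of the pigment gene Pmel on chromosome 10, and Pmel fell by a like amount (-0.68 ± 0.06), so the value of Cdk2 is uncertain. Whether the probe sets separate the 2 transcripts was not tested.

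DNA repair genes that accompany replication were higher as well. Among 18 measured homologous recombination and Fanconi anaemia genes 13 rose (median 0.44), and among 15 checkpoint genes 7 rose (median 0.17), against 7.8% of all genes. The helicase Brip1 read 8.09, 8.08 and 7.99 in the negative control, against 7.28, 7.19 and 7.07 in the hypoxia control, a difference of 0.87 ± 0.06 (adjusted p = 2.2e-07). Rad51ap1, Brca2 and Fancd2 differed by 0.84, 0.76 and 0.75. Of the checkpoint list the mediator Mdc1 (0.78 ± 0.05) and the scaffold Topbp1 (0.75 ± 0.06) moved most, and Atm, the kinase that senses double-strand breaks, fell by 0.2 (adjusted p = 0.016), named after its value was seen.

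**Figure D2:**
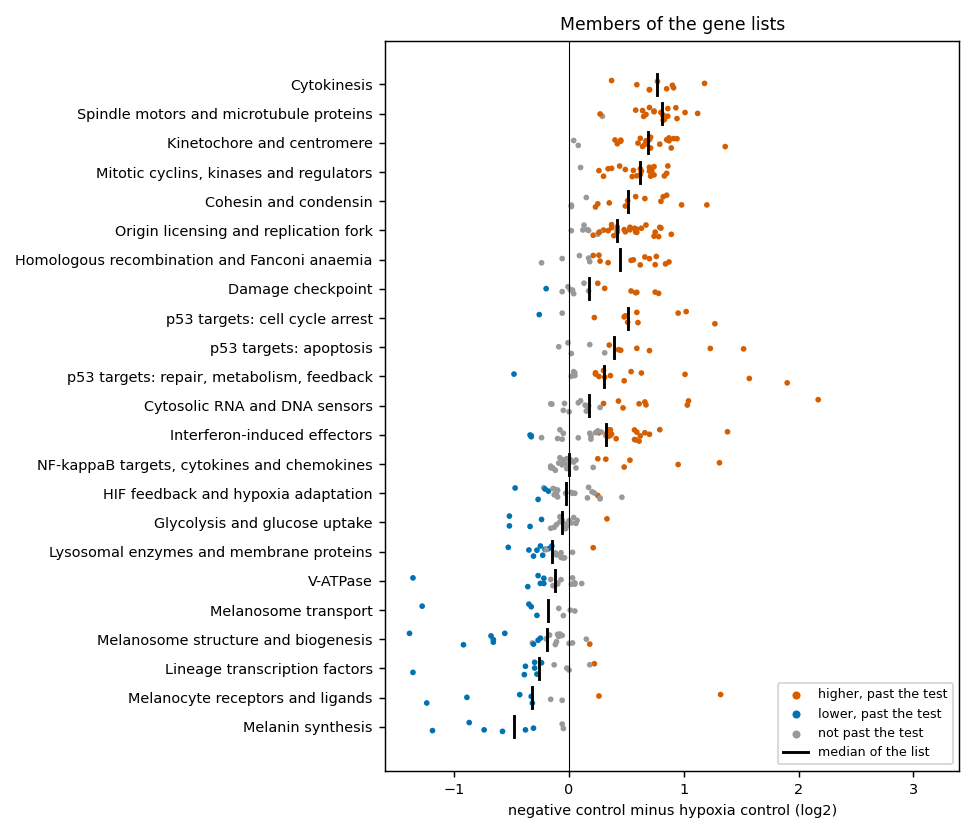
Each point is a measured member of the gene list named on the y axis, placed by its difference, negative control minus hypoxia control (log2), on the x axis; orange members rose, blue members fell and grey members did not pass the test, and the black bar is the median of the list. The mitosis lists sit to the right, with medians of 0.62 to 0.81, and the melanin synthesis list to the left at -0.48; vertical scatter within a row has no meaning.

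Alongside the division genes, targets of p53 were higher. Of 11 measured arrest targets 9 rose, of 12 apoptosis targets 7 rose, and of 17 targets in repair, metabolism and feedback 12 rose, with medians of 0.51, 0.39 and 0.3. Of all genes 7.8% rose. Dglucy, listed here as a p53 target in metabolism, read 9.27, 9.39 and 9.26 in the negative control, against 7.39, 7.27 and 7.57 in the hypoxia control. Its difference of 1.9 ± 0.09 (adjusted p = 9.6e-09) is a 3.72-fold higher signal. Ddias, an apoptosis suppressor induced by DNA damage, stood at 8.94, 8.92 and 8.93 in the negative control, against 7.45, 7.36 and 7.26 in the hypoxia control. In both genes the groups lay far apart relative to their spread. Tnfrsf23, a decoy receptor for the death ligand TRAIL in mice, stood at 8.94, 9.04 and 8.87 in the negative control, against 7.72, 7.36 and 7.22 in the hypoxia control. It has a close neighbour of similar sequence, which the probes may not separate.

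The best known p53 targets moved by less than these. Cdkn1a, which encodes the CDK inhibitor p21, read 11.53, 11.59 and 11.55 in the negative control, against 11.18, 11.03 and 11 in the hypoxia control, a difference of 0.49 ± 0.06 (adjusted p = 3.5e-05). Mdm2, the ubiquitin ligase that degrades p53, stood at 11.12, 11.04 and 10.99 in the negative control, against 10.47, 10.41 and 10.4 in the hypoxia control. Neither overlapped. The antiproliferative gene Btg2 rose by 0.95 ± 0.08, the kinase Plk2 by 1.27 ± 0.10, Gtse1, a p53 regulator of G2, by 1.02 ± 0.06 and the death receptor genes Eda2r and Tnfrsf10b by 1.23 ± 0.08 and 0.59 ± 0.05. Among apoptosis targets the BH3-only genes Bbc3 and Pmaip1 differed by -0.09 and 0.02, and 2 members of the other lists fell, Sesn1 (-0.26) and Cyfip2 (-0.48), all named after their values were seen. Gtse1 and Ckap2 (1.01 ± 0.06) are also genes of mitosis.

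Among other CDK inhibitors, Cdkn3 (0.82 ± 0.08) and Cdkn2c (0.3 ± 0.07) rose. Cdkn3, a phosphatase that acts on CDKs and is itself expressed in dividing cells, read 10.12, 10.08 and 9.97 in the negative control, against 9.36, 9.27 and 9.08 in the hypoxia control. Cdkn1b, which encodes p27, differed by -0.18 ± 0.06 (adjusted p = 0.038), a call that was lost under some other settings. Cdkn2b (0.2), Cdkn1c (-0.09) and Cdkn2d (0.07) did not pass.

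Innate immune genes rose in part. Of 21 measured sensors of cytosolic RNA and DNA 9 rose, with a median of 0.17, and of 34 interferon-induced effectors 18 rose and 3 fell, with a median of 0.32. Of 17 genes for interferons, their receptors and signalling 5 rose and 1 fell (median 0.13). Over all genes 7.8% rose and 7.51% fell. Of 10 antigen presentation genes 3 rose (median 0.16), with the peptide transporter gene Tap1 at 0.32 and the immunoproteasome gene Psmb10 at 0.31. The largest rise of any gene was here, in Ifi204, a DNA-sensing member of the interferon-inducible p200 family. It read 6.03, 6.1 and 6.09 in the negative control, against 4.11, 4.02 and 3.58 in the hypoxia control, a difference of 2.17 ± 0.14 (adjusted p = 1.2e-07) or 4.5-fold. The hypoxia control lay below 5.61, under which the dimmest 25% of genes lay, and differences of dim genes are compressed by array background. The p200 genes are close copies of each other, as are the Oas, Gbp and immunity-related GTPase genes, and their values are uncertain to that extent.

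Interferon-stimulated genes carry the interferon-stimulated response element, which the transcription factor complex ISGF3 and other IRF proteins bind. Its core was searched as GAAA, any 2 bases and GAAA again, on both strands. Shown are 3 windows of risen effectors, of which Ifit1 was chosen after its value was seen, with the match nearest the gene start in capitals. They are again from RefSeq GRCm38.p6, on the gene's strand and upstream of the start only.
Irgm2, chr11:58214877-58214958 (+ strand): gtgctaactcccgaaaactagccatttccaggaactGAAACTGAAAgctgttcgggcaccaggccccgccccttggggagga
Gbp7, chr3:142530247-142530328 (+ strand): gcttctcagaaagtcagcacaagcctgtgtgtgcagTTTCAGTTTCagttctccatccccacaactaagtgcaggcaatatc
Ifit1, chr19:34640768-34640849 (+ strand): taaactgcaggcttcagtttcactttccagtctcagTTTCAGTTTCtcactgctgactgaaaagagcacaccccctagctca
The core in capitals starts 64, 53 and 85 bases before the gene start. The Ifit1 window holds a further match in lower case, farther from the start. Over the window from 250 before to 50 after the start, 25 of 56 members of the sensor, signalling and effector lists with an entry (44.6%) held it, against 657 of 16990 genes (3.9%). Among members with an entry, it was held by 13 of the 24 that rose and by 12 of the 32 that did not rise.

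RNA sensors were among the members that moved. Ddx58, which encodes RIG-I, read 10.25, 10.2 and 10.18 in the negative control, against 9.14, 9.13 and 9.28 in the hypoxia control, a difference of 1.03 ± 0.08 (adjusted p = 3.4e-07). Ifih1, which encodes MDA5, stood at 7.08, 7.04 and 6.69 in the negative control, against 6.26, 6.2 and 6.35 in the hypoxia control, with more spread and no overlap. Oasl2, of the oligoadenylate synthetase family, stood at 7.66, 7.33 and 7.51 in the negative control, against 6.56, 6.52 and 6.3 in the hypoxia control. All 3 are themselves interferon-inducible. The DNA sensor gene Aim2 differed by 0 and the adaptor gene Mavs by -0.16, both named after their values were seen.

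Of the effectors Herc6, a ligase for the ubiquitin-like protein ISG15 in mice, moved most. It read 8.8, 8.79 and 8.63 in the negative control, against 7.3, 7.38 and 7.4 in the hypoxia control, a 2.61-fold difference (1.38 ± 0.08, adjusted p = 3.5e-08). Irgm2, an immunity-related GTPase, rose by 0.79 ± 0.11, the guanylate-binding protein gene Gbp7 by 0.7 ± 0.11 and the antiviral membrane protein gene Ifitm3 by 0.66 ± 0.07. The members that fell were Ifitm2 (-0.34), Mx1 (-0.33) and Lgals3bp (-0.33), named after their values were seen. The dimmer second probe set of Lgals3bp differed by -0.21 (adjusted p = 0.120). The type I interferon gene Ifnb1 was dim and alike in both groups, at 4.55, 4.66 and 4.79 in the negative control, against 4.74, 4.72 and 4.6 in the hypoxia control (-0.02, adjusted p = 0.912), and was chosen after its value was seen. Usp18, a feedback inhibitor of the interferon receptor, rose by 0.62 ± 0.11, while Ifna2 (0.29), Irf7 (0.26) and Jak1 (0.24) rose by less. The calls for Ifna2 and Irf7 were lost under 2 other settings each. Ifna2 was dim, with means of 4.74 in the negative control and 4.46 in the hypoxia control. Both lie below 5.61, under which the dimmest 25% of genes lay. The receptor genes Ifngr1 (0.18, higher) and Ifnar1 (-0.23, lower) are named after their values were seen.

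Inflammatory genes moved in a few members. Of 24 NF-kappaB targets, cytokines and chemokines 6 rose, against 7.8% of all genes, with a median of 0. The chemokine gene Ccl5, induced by viral RNA, read 8.09, 8.09 and 8.19 in the negative control, against 6.85, 6.91 and 6.68 in the hypoxia control, a difference of 1.31 ± 0.12 (adjusted p = 2.3e-06). Csf1, the macrophage growth factor, stood at 9.16, 9.28 and 9.37 in the negative control, against 8.43, 8.35 and 8.17 in the hypoxia control. Il33 (0.53 ± 0.07) and Cxcl12 (0.48 ± 0.08) rose by less. Cd80, a co-stimulatory ligand for T cells that is in no list, was higher at 7.75, 7.79 and 7.53 in the negative control, against 6.61, 6.41 and 6.12 in the hypoxia control. The macrophage markers Ptprc, Cd68 and Adgre1 differed by -0.04, -0.06 and -0.12 and did not pass.

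**Figure D3:**
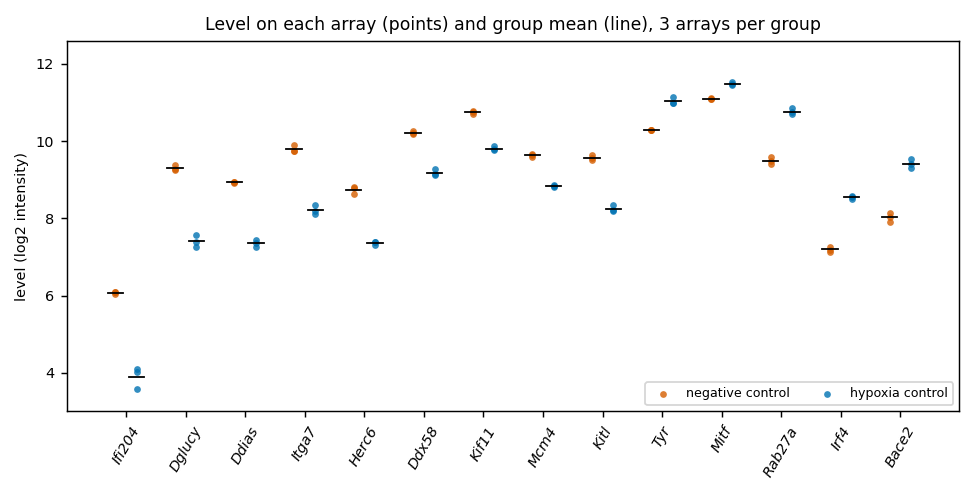
Points are the level of a gene (log2 intensity, y axis) on each of 3 arrays of the negative control (orange, left) and of the hypoxia control (blue, right), with the group mean as a line. The orange points lie above the blue ones from Ifi204 to Kitl and below them from Tyr to Bace2. None of the 14 genes overlaps, and neither did 31.3% of all genes. The largest rises and falls were picked among genes without overlap, so for them this was set by the choice.

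Pigment genes went the other way. Of 8 measured melanin synthesis genes 6 fell, of 22 melanosome structure and biogenesis genes 9 fell, of 8 melanosome transport genes 4 fell and of 12 lineage transcription factors 7 fell, to be set against 7.51% of all genes. The median differences were -0.48, -0.19, -0.18 and -0.26. Of 9 receptors and ligands of melanocytes 5 fell and 2 rose, against 7.51% and 7.8% of all genes, with a median of -0.32.

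Mitf binds the M-box, TCATGTG, in promoters of pigment genes. The windows of 3 fallen members that hold it are shown with the M-box in capitals, from RefSeq GRCm38.p6, on the gene's strand and upstream of the start only.
Tyr, chr7:87493513-87493570 (- strand): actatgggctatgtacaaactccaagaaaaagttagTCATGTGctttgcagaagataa
Dct, chr14:118052355-118052433 (- strand): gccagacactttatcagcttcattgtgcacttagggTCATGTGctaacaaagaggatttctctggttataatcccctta
Mc1r, chr8:123406994-123407072 (+ strand): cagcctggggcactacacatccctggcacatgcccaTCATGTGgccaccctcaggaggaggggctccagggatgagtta
It starts 22, 151 and 52 bases before the gene start. On either strand it was held by 5 of 46 pigment list members with an entry (10.9%), against 602 of 16990 genes (3.5%). It was held by 4 of the 21 fallen members with an entry. The shorter CATGTG, which every M-box contains, was held by 8 of 46 (17.4%) against 13.3% of all genes.

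Tyr encodes tyrosinase, the enzyme that starts melanin synthesis. It read 10.28, 10.3 and 10.3 in the negative control, against 10.98, 11 and 11.13 in the hypoxia control, a difference of -0.74 ± 0.07 (adjusted p = 3.9e-06) that left 59.8% of the signal. Slc24a4, a potassium-dependent sodium and calcium exchanger, fell most in the list, at 8.73, 8.63 and 8.61 in the negative control, against 9.71, 9.86 and 9.97 in the hypoxia control. The melanosomal channel gene Oca2 (-0.87 ± 0.06), the transporter gene Slc45a2 (-0.58 ± 0.07), Dct (-0.38 ± 0.06), which converts dopachrome, and the channel gene Tpcn2 (-0.31 ± 0.06) fell too. Tyrp1 and the copper pump gene Atp7a (-0.06) did not pass, so the list did not move as 1 block.

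Bace2, a protease that cleaves the Pmel protein into its fibril-forming part, had the largest fall of all genes. It read 8.03, 8.14 and 7.9 in the negative control, against 9.3, 9.42 and 9.53 in the hypoxia control, which is 38.2% of the signal (-1.39 ± 0.09, adjusted p = 9.8e-08). Pmel itself, the amyloid of the melanosome, stood at 11.68, 11.76 and 11.83 in the negative control, against 12.46, 12.42 and 12.42 in the hypoxia control. Mlana, a melanosome protein recognised as MART-1 in melanoma, stood at 11.06, 11.26 and 11.45 in the negative control, against 12.15, 12.17 and 12.21 in the hypoxia control. Hps3, a subunit of the BLOC-2 sorting complex, fell by 0.66 ± 0.07. Bloc1s6, of the BLOC-1 complex, rose by 0.18 and is named after its value was seen.

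In transport, Rab27a, the GTPase that ties melanosomes to actin motors, read 9.59, 9.48 and 9.4 in the negative control, against 10.69, 10.75 and 10.86 in the hypoxia control, 41.3% of the signal. Its partners in that complex fell by less, the linker Mlph by 0.35 ± 0.05 and the motor Myo5a by 0.28 ± 0.05, and the effector Sytl2 fell by 0.33 ± 0.05. Myrip (-0.05), Rab8a (0.01), Rab1a (0.05) and Rab17 (-0.09) did not pass.

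The transcription factor Irf4, which binds an enhancer of Tyr together with Mitf, read 7.27, 7.18 and 7.14 in the negative control, against 8.51, 8.56 and 8.58 in the hypoxia control. The difference of -1.36 ± 0.06 (adjusted p = 7.0e-09) was far larger than that of any other lineage factor, and left 39.1% of the signal. Mitf stood at 11.12, 11.09 and 11.08 in the negative control, against 11.48, 11.45 and 11.53 in the hypoxia control, a difference of -0.39 ± 0.05 (adjusted p = 1.0e-04). Sox5, which restrains Sox10 in melanocytes, fell by 0.38 ± 0.08 and Foxd3 by 0.3 ± 0.08 (adjusted p = 0.016), the call for Foxd3 being lost under some other settings. Sox10 (-0.28) and Pax3 (-0.24), upstream of Mitf, also fell, and Lef1, a Wnt effector, rose by 0.22, all 3 named after their values were seen.

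Receptor and ligand genes of one pathway split. Kit, the receptor for stem cell factor, read 7.82, 7.88 and 7.7 in the negative control, against 8.72, 8.67 and 8.7 in the hypoxia control. Its ligand gene Kitl stood the other way, at 9.65, 9.57 and 9.5 in the negative control, against 8.35, 8.2 and 8.21 in the hypoxia control, a difference of 1.32 ± 0.06 (adjusted p = 7.0e-09) or 2.49-fold. The endothelin receptor gene Ednrb, which supports melanocyte growth, stood at 8.32, 8.27 and 8.19 in the negative control, against 9.36, 9.51 and 9.64 in the hypoxia control, while Edn1 differed by -0.06 and did not pass. The melanocortin receptor gene Mc1r fell by 0.32 ± 0.06, Met by 0.33 ± 0.05 and Erbb3 by 0.43 ± 0.05, and Fgfr1 rose by 0.26 ± 0.06.

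Among the genes with the largest falls outside the lists were Tspan10 and Mgat5. Tspan10, a tetraspanin expressed in pigment cells, read 9.59, 9.56 and 9.58 in the negative control, against 10.72, 10.77 and 10.88 in the hypoxia control. Mgat5, which branches the sugars of glycoproteins, stood at 8.89, 9 and 8.92 in the negative control, against 10.03, 10.11 and 10.17 in the hypoxia control. The peptidyl arginine deiminase gene Padi2 fell by 1.03 ± 0.07, but its second probe set differed by -0.2 (adjusted p = 0.141). Plxnc1, a semaphorin receptor, fell by 1 ± 0.06 and the lipase gene Mgll by 0.92 ± 0.07. These largest falls were picked among genes whose arrays did not overlap.

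Lysosomal and V-ATPase genes were lower by small amounts. Of 19 measured lysosomal genes 9 fell and 1, Gla, named after its value was seen, rose (median -0.15), of 16 V-ATPase genes 6 fell (median -0.12), and of 15 genes of cholesterol synthesis and uptake 7 fell (median -0.17), where 7.51% of all genes fell. The pump subunit gene Atp6v0d2 was the exception in size, at 5.57, 5.34 and 5.21 in the negative control, against 6.25, 6.89 and 7.06 in the hypoxia control. Its negative control arrays lay below 5.61, under which the dimmest 25% of genes lay, so the size of the fall is uncertain. The hypoxia control arrays spread widely here, the first being the lowest, and the difference was -1.36 ± 0.15 (adjusted p = 1.5e-05). The receptor gene Scarb2 fell by 0.53 ± 0.06, the hexosaminidase gene Hexa by 0.35 ± 0.06 and the pump subunit gene Atp6v0a1 by 0.36 ± 0.06. Abca1, a cholesterol exporter, fell by 0.59 ± 0.06, the isoprenoid enzyme gene Fdps by 0.43 ± 0.08 and the oxidosqualene cyclase gene Lss by 0.38 ± 0.07.

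Adhesion and early response genes changed in a few members. Itga7, a laminin-binding integrin, read 9.75, 9.74 and 9.9 in the negative control, against 8.34, 8.19 and 8.11 in the hypoxia control, a 2.99-fold difference (1.58 ± 0.09, adjusted p = 2.6e-08). Itga3, of the same ligand class, rose by 0.97 ± 0.07 and Itga8 by 0.39 ± 0.05, while Itga9 fell by 0.4 ± 0.09. In all 4 of 15 integrins rose and 2 fell (median 0.1), against 7.8% and 7.51% of all genes, Itga1 (0.31) and Itga4 (-0.22) being the others, named after their values were seen. Of 21 collagen and matrix genes 4 rose and 1 fell (median 0.03), to be read against the same shares, led by thrombospondin, Thbs1 (1.16 ± 0.08), and the matricellular gene Ccn1 (1.12 ± 0.09). Tnc and Col1a1 rose by 0.41 and 0.43, and Col1a2 was the member that fell, on the brighter of its probe sets only. F11r, a junctional adhesion molecule that is in no list, rose by 1.4 ± 0.07.

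Of 20 immediate early genes 6 rose and 3 fell (median 0.09), where 7.8% of all genes rose and 7.51% fell. Egr1, a growth factor response gene, read 7.61, 7.66 and 7.69 in the negative control, against 6.7, 6.68 and 6.5 in the hypoxia control. Spry4 (0.55 ± 0.08) and Spry2 (0.46 ± 0.06), feedback inhibitors of receptor kinases, rose as well. Those that fell were Jund (-0.33), Dusp4 (-0.24) and Myc (-0.2), named after their values were seen. In the ATF4 list of 20 genes 2 rose and 5 fell (median 0.03), the cystine transporter gene Slc7a11 rising by 0.73 ± 0.07 and the folate enzyme gene Mthfd2 by 0.41 ± 0.07. The dimmer second probe set of Slc7a11 differed by -0.1 and did not pass. The leucine transporter gene Slc7a5 (-0.5 ± 0.06), Slc1a5 (-0.37) and Ddit4 (-0.27, a call lost under 8 of 15 other settings) fell. So did Slc3a2 (-0.24) and Shmt2 (-0.23), this pair named after their values were seen. The dimmer second probe set of Slc1a5 differed by -0.14 (adjusted p = 0.490). Of 12 Nrf2 target genes 4 rose (median 0.11), namely Slc7a11 and the redox genes Txnrd1, Nqo1 and Gsr at 0.36, 0.36 and 0.3. Of 17 ER chaperone genes 3 fell (median -0.04), namely Herpud1 (-0.44), Xbp1 (-0.26) and Sel1l (-0.18, a call lost under 2 other settings).

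Median differences of hypoxia response genes were small between the 2 groups, both of which were hypoxic. The share that fell was above that of all genes. Hif1a read 10.68, 10.66 and 10.56 in the negative control, against 10.63, 10.54 and 10.59 in the hypoxia control, with overlapping arrays (0.05 ± 0.06, adjusted p = 0.694). Of 23 HIF feedback and adaptation genes 1 rose and 4 fell, with a median of -0.03, and of 19 glycolysis genes 1 rose and 4 fell, with a median of -0.06. Over all genes 7.8% rose and 7.51% fell. The carbonic anhydrase gene Car12 fell by 0.47 ± 0.07 and Pgam1 and Aldoc, glycolytic enzymes, by 0.52 ± 0.07 and 0.52 ± 0.10, while the glucose transporter gene Slc2a3 rose by 0.33 ± 0.07. The others past the test in these lists were Ddit4, Pfkm (-0.34), whose call was lost under 6 other settings, and, named after their values were seen, Narf (-0.21), Ndrg1 (-0.18), Hk2 (-0.24) and P4ha1 (0.25, the member that rose). The dimmer second probe set of Ndrg1 differed by -0.09 (adjusted p = 0.643). Egln3 was higher by 0.46 ± 0.15 with overlapping arrays and did not pass (adjusted p = 0.057). Car9, named after its values were seen, differed by -0.22 and did not pass, but its dimmer second probe set was higher by 0.37 (adjusted p = 0.016). The same 2 lists had medians of 1.79 and 1.39 in the hypoxia control minus normoxia. Of 28 respiratory chain genes Cycs, for cytochrome c, rose by 0.31, Ndufv1 and Uqcrc1 differed by -0.24 and -0.23, past the test, and the median was -0.08. These 2 of 28 that fell stand beside 7.51% of all genes, and the call for Uqcrc1 was lost under 4 other settings. The calls for Cycs and Ndufv1 were lost under 1 each. Dimmer probe sets of Cycs disagreed in size, at 0.16 (limma adjusted p = 0.061), 0.26 (limma adjusted p = 0.440) and 0.68 (limma adjusted p = 0.001).

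The machinery that small RNAs use was nearly level. Of 11 measured genes 2 fell, Ago2 and Ago1, against 7.51% of all genes, and the median was -0.03. Ago2, the argonaute that cuts a matched target, read 10.45, 10.48 and 10.42 in the negative control, against 10.81, 10.78 and 10.81 in the hypoxia control, a difference of -0.35 ± 0.05 (adjusted p = 1.0e-04). Ago1 differed by -0.21 ± 0.06 (adjusted p = 0.026), a call lost under some other settings, and Drosha (0.09) and Ago4 (-0.16) did not pass.

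The other groups place these differences. The comparisons that follow share arrays with the one described, of the negative control or of the hypoxia control, so they are values side by side and not separate support. Against the hypoxia control, Si1 was higher for 20.9% of genes and lower for 17.1%, and Si6 for 16.9% and 12.9%. The median of the spindle list was 0.81 for the negative control, 0.7 for Si1 and 0.94 for Si6, each minus the hypoxia control. For the replication list it was 0.42, 1.29 and 1.13, for the arrest targets of p53 0.51, 1.08 and 0.59, and for the effectors of interferon 0.32, 0.26 and -0.08. For melanin synthesis it was -0.48, -0.54 and -0.33.

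Kif11 averaged 10.75 ± 0.04 in the negative control, with 10.78 ± 0.07 in Si1, 10.94 ± 0.04 in Si6, 9.81 ± 0.06 in the hypoxia control and 9.64 ± 0.08 in normoxia (SD, n = 3 arrays each). The groups called negative control and Si1 did not differ beyond their spread. Ddias averaged 8.93 ± 0.01, 10.03 ± 0.04 and 9.19 ± 0.06 in the negative control, Si1 and Si6, against 7.36 ± 0.09 in the hypoxia control and 7.2 ± 0.04 in normoxia. For Tyr the means were 10.29 ± 0.01, 9.38 ± 0.15 and 10.18 ± 0.1 in the negative control, Si1 and Si6, against 11.04 ± 0.08 in the hypoxia control and 11.28 ± 0.02 in normoxia. In these 3 genes the negative control stood on the side of the siRNA groups.

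Some genes stood apart in the negative control. For these, the contrasts with Si1 and with Si6 were added to the same fit after the data were seen, with 14.8% of genes higher and 20.2% lower in the negative control than in Si1, and 11.9% higher and 17% lower than in Si6. Ifi204 averaged 6.07 ± 0.04 in the negative control and 4.31 ± 0.34 and 3.41 ± 0.13 in Si1 and Si6, against 3.9 ± 0.29 in the hypoxia control and 3.11 ± 0.02 in normoxia. The negative control exceeded Si1 by 1.76 (adjusted p = 1.0e-07) and Si6 by 2.66 (adjusted p = 2.8e-09). Map3k7cl averaged 7.62 ± 0.04 in the negative control and 6.43 ± 0.12 and 5.97 ± 0.09 in Si1 and Si6, against 6.27 ± 0.11 in the hypoxia control. The negative control exceeded Si1 by 1.19 (adjusted p = 1.5e-07) and Si6 by 1.65 (adjusted p = 1.0e-08). For Irf4 the negative control was lowest, with differences of -0.72 from Si1 (adjusted p = 3.1e-07) and -0.94 from Si6 (adjusted p = 3.9e-08).

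The siRNA groups also parted from each other at several of these genes. Itga7 averaged 9.8 ± 0.09 in the negative control and 9 ± 0.14 in Si1, but 7.55 ± 0.09 in Si6, against 8.21 ± 0.12 in the hypoxia control. Slc38a3, a glutamine transporter gene, averaged 9.21 ± 0.02 in the negative control and 9.96 ± 0.1 in Si1 but 7.79 ± 0.05 in Si6, against 7.89 ± 0.12 in the hypoxia control. Mlana averaged 11.26 ± 0.2 and 11.37 ± 0.14 in the negative control and Si1 but 12.09 ± 0.06 in Si6, against 12.18 ± 0.03 in the hypoxia control. In Itga7, Slc38a3 and Mlana, Si1 was closer to the negative control than Si6 was. Slc45a2, Kit and Hps3, lower in the negative control, differed by 0.19, 0.22 and 0.18 between Si6 and the hypoxia control.

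**Figure D4:**
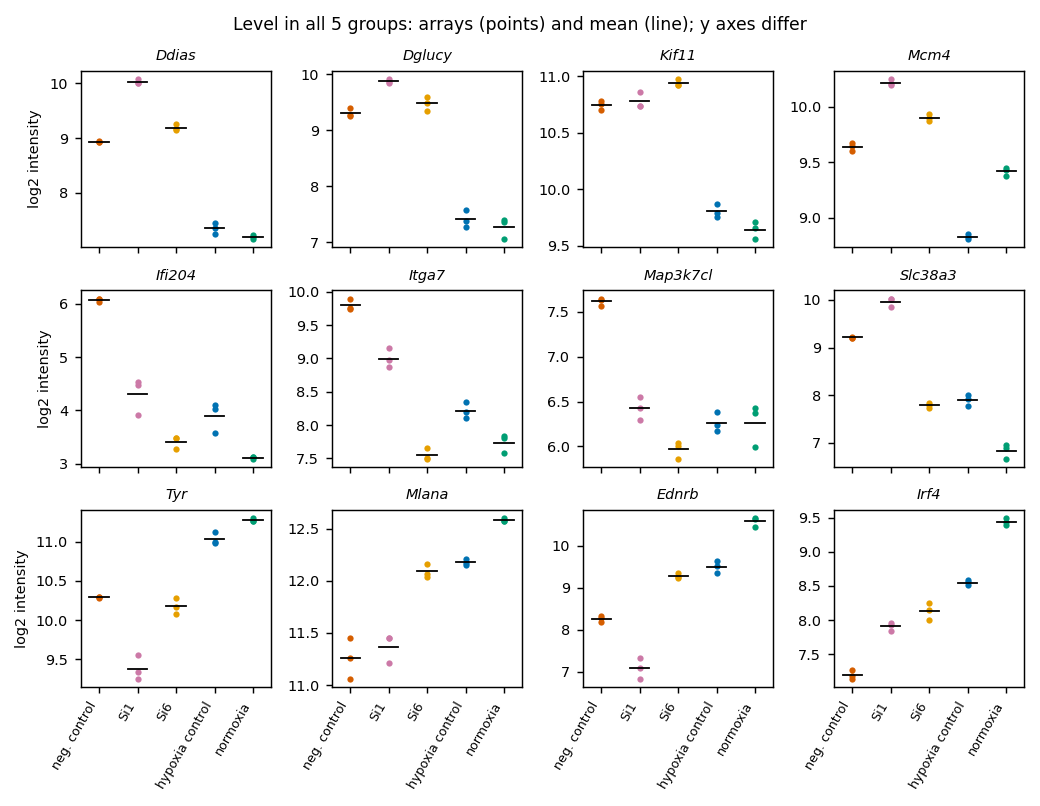
Each panel shows 1 gene, with the level (log2 intensity, y axis, scaled per panel) on 3 arrays of each group as points and the group mean as a line, in the order negative control, Si1, Si6, hypoxia control and normoxia. Ddias, Dglucy, Kif11 and Mcm4 are higher in the negative control, Si1 and Si6 than in the hypoxia control, whereas Ifi204 and Map3k7cl are higher in the negative control than in each of the other 4 groups.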

How the data were processed

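Affymetrix one-colour arrays measured RNA from 15 cultures. The authors deposited log2 intensities of 41345 probe sets. RMA and Partek are named without version in the submitters' processing notes, and the sources used here do not give the genome build, filters or batches. RMA's quantile normalization hides a change of all genes together, and dim genes have compressed differences. The file holds no detection calls. Of the probe sets, 23521 had 1 gene symbol in the platform annotation, 1814 several and 16010 none. The Entrez identifiers of 23328 were found in the RefSeq table and those of 193 were not, and 0 symbols changed. For 1082 genes with several probe sets the brightest over all arrays was used, which left 22180 genes.

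In R 4.3.3, limma 3.58.1 with eBayes fitted the mean of each of the 5 groups over all 15 arrays, without covariates (two-sided, Benjamini-Hochberg over all genes, threshold 0.05). The median standard error was 0.076, and the number of arrays limits the precision. On simulated data with 22180 genes, 79.1% of 67 genes changed by 0.5 were recovered, 100% of 67 changed by 1 and 100% of 66 changed by 2, and 0.068% of unchanged genes were called. The members and the lists (640 of 702 genes measured) were chosen with earlier results of these data known. Lists are described by counts and medians, with no set test. Named genes were Hif1a, the 15 largest rises and 15 largest falls without overlap, up to 4 leading members of each list and any member of lists under 12, with symbols of the Gm, Rik and Mir kind skipped; other names are marked in the text. Replicate letters showed no pairing between the negative control and the hypoxia control (correlations of same-letter deviations of 0, 0.02 and 0.03), the only groups checked. Promoter entries came from RefSeq GRCm38.p6. Alternatives were another quantile normalization, median centring, filters on low levels, the mean of probe sets, other variance settings, array weights, only the 6 arrays, the replicate block and leaving out each array.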

Additional observations from a re-analysis of the deposited data

Results flagged for a closer look

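Probe sets with no gene symbol in the platform annotation were not used in the gene comparison. Fitted with all probe sets, 253 of the 16010 were higher in the negative control and 226 were lower, 2.99% in all. Of these, 14 rose and 5 fell by 2-fold or more. In the gene comparison 15.3% of 22180 genes passed. That share and the 2.99% are not on the same footing. The 2.99% was adjusted over all 41345 probe sets and the 15.3% over the brightest probe set of each gene. The largest rise was probe set 17238636, at 6.43 ± 0.18 in the negative control, against 4.38 ± 0.26 in the hypoxia control (SD, n = 3 arrays each), a difference of 2.05 ± 0.14 (limma adjusted p = 1.5e-06). The largest fall was probe set 17514326, at 5.82 ± 0.21 in the negative control, against 7.7 ± 0.28 in the hypoxia control (-1.87 ± 0.41, limma adjusted p = 0.012). What these probe sets read was not analysed here.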

How the results depend on the processing

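Over 15 alternatives, the counts of genes higher and lower, the counts of 2-fold changes and the 22 leading list counts stayed within 1.5 times their values. Genes higher numbered 1347 to 2070 and genes lower 1171 to 2003, with 47 to 67 and 9 to 12 at least 2-fold higher and lower. Leaving out 1 array gave 2518 (without hypoxia control c) to 3053 (without negative control c) called genes. With the replicate block 3137 genes passed, 3078 of the 3396 among them in the same direction. Between the negative control and the hypoxia control the letters showed no pairing. Other groups were not checked for it, and so few arrays cannot exclude a shared batch. Of 206 named genes, 178 had the same call and direction under each alternative that could test them, and none reversed. Of the 28 others, the call changed under 8 alternatives for Ddit4, 7 for Cdkn1b, Lum and Gfap, and 6 for Atp6v1a, Pfkm, Egln3 and Cox4i1. It changed under 5 for Ago1, Cdkn2b and Stc1, 4 for Uqcrc1, and 3 for Egr3 and Pdia6. For Foxd3, Irf7, Ifna2, Col1a2, Sel1l and H2-T23 it changed under 2, and for the rest under 1. The list of lysosomal genes ranged from 6 to 13 lower and that of cholesterol from 5 to 9. No detection calls were given, so the limit set by background on dim genes such as Ifi204 could not be measured.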

Other observations

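A few genes outside the lists had differences as large as the leading members. The serotonin receptor gene Htr5b averaged 8.7 ± 0.05 in the negative control, against 7 ± 0.09 in the hypoxia control (SD, n = 3 arrays each), a difference of 1.69 ± 0.09 (limma adjusted p = 2.6e-08). It averaged 9.17 ± 0.11 in Si1 and 7.59 ± 0.17 in Si6. Mybl1, of the Myb family of transcription factors, averaged 9.45 ± 0.01 in the negative control, against 8.11 ± 0.06 in the hypoxia control, and 10.65 ± 0.04 and 9.93 ± 0.07 in Si1 and Si6.

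For Cxcl12 and Slc7a5 the negative control and the hypoxia control lay on the same side of both siRNA groups, the negative control farther from them. The chemokine gene Cxcl12 averaged 9.46 ± 0.03 in the negative control and 7.79 ± 0.1 and 7.77 ± 0.12 in Si1 and Si6, against 8.98 ± 0.16 in the hypoxia control and 7.93 ± 0.07 in normoxia. The amino acid transporter gene Slc7a5 averaged 10.89 ± 0.08 in the negative control and 12.11 ± 0.03 and 12.06 ± 0.03 in Si1 and Si6, against 11.39 ± 0.09 in the hypoxia control and 12.12 ± 0.05 in normoxia. The negative control differed from Si1 by -1.22 (limma adjusted p = 2.7e-10) and from Si6 by -1.17 (limma adjusted p = 9.3e-10).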
